A study of Homo sapiens and Mus musculus with 14 samples.

Results

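The replication-dependent histone genes are the clustered genes for the linker histone H1 and the core histones H2A, H2B, H3 and H4. They were taken by symbol and place. All protein-coding genes whose symbol begins with H1-, H2AC, H2BC, H3C or H4C were used if they lie on chromosome 6 between 25.5 and 28.5 Mb, or on chromosome 1 between 149 and 150.5 Mb or between 228 and 229 Mb (build hg38). This gave 68 of 19970 protein-coding genes: 6 for H1, 17 for H2A, 18 for H2B, 13 for H3 and 14 for H4. The choice used no measured value.

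Dividing cells need a full new set of histones each time they copy their DNA, and these genes supply it in S phase. Their transcripts end in a stem-loop instead of a poly(A) tail. SLBP binds that loop, and U7 snRNP, which contains LSM10 and LSM11, directs the cut that forms the end. Transcription takes place at the histone locus body, a nuclear structure organised by NPAT, which cyclin E and CDK2 phosphorylate, together with CASP8AP2 (FLASH). Many H2A and H2B genes lie head to head and share the DNA between their start sites.

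Accessible DNA was mapped by ATAC-seq, in which a transposase cuts open chromatin and inserts sequencing adapters, in MDA-MB-436, an established human breast adenocarcinoma cell line. The groups were control cells (3 libraries, batch 1), SMARCAL1 knockout clone 1 (3 libraries, batch 1) and SMARCAL1 knockout clone 2 (2 libraries, batch 2). SMARCAL1 is an annealing helicase that acts at replication forks that have stalled. The series asks what its loss does to chromatin accessibility. The authors merged the replicates of each group into 1 peak list, so each value below stands for a whole group, has no replicate error and no test. Each knockout group is 1 clone, so loss of SMARCAL1 and differences between clones cannot be told apart. For clone 2, the batch cannot be told apart from the clone either. A further 6 libraries came from the mouse melanoma line B16F10 with Smarcal1 knocked out or reconstituted and were not analysed here.

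The lists held 64806 peaks in control, 39537 in clone 1 and 34572 in clone 2, with median widths of 399, 453 and 200 bp. Read depth is not given by the lists. The score of a peak was taken to be −log10 p, so a higher score was read as stronger evidence for a peak in that list. Some scores are means over replicates, which can be lower than the score of a peak called in 1 library. Scores were used to describe or rank peaks within a list, since depth and peak calling may differ between lists. A gene was said to have a gene-end peak when a peak lay within 1000 bp of either of its annotated ends. The SMARCAL1 gene had a gene-end peak in all 3 lists (16.7 in control, 13.1 and 13.5 in the clones), which does not check the knockout. Among markers of a mesenchymal or basal breast cancer line, VIM had a gene-end peak in all 3 lists, ZEB1 in control and clone 1, and CD44, AXL and KRT17 in control only. KRT5 and KRT14 had none in any list. Of the 7 epithelial or luminal markers, EPCAM and FOXA1 had a peak in all 3 lists, KRT8 and KRT18 in control only and CDH1 in clone 1 only, while ESR1 and GATA3 had none. Of 7 leukocyte, endothelial and melanocyte markers, PTPRC had a peak in clone 2 only (score 7.80) and PMEL, which adjoins CDK2, had one in all 3 lists.

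The promoters below show the DNA on which the comparisons turn. Each is the 250 bases before the annotated start site, 5′ to 3′ on the strand of the gene, from the RefSeq table of GRCh38.p14, whose primary chromosomes carry the hg38 coordinates. Capitals mark every match, on either strand, to TATAAA (the TATA box), CCAAT (bound by NF-Y), ATTTGCAT (the octamer bound by POU2F1), AAACACA (the H1 box) or GGTCCG (the core of the HINFP element of H4 promoters). Neighbouring or overlapping matches form 1 run of capitals. H2BC12 holds the strongest control peak of all the histone genes.
H2BC12: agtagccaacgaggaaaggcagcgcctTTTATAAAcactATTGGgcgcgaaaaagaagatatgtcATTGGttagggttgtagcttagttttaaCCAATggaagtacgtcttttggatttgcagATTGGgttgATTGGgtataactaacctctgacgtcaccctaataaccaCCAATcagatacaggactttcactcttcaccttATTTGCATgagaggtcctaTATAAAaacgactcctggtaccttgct
H2BC13 and H2BC14 are close copies with different outcomes: the peak of H2BC13 was found in all 3 lists and that of H2BC14 in control only.
H2BC13: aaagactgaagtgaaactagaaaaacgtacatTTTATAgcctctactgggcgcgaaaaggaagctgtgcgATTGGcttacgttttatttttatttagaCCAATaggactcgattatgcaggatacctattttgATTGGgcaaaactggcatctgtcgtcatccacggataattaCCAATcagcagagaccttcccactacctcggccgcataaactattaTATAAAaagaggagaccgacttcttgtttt
H2BC14: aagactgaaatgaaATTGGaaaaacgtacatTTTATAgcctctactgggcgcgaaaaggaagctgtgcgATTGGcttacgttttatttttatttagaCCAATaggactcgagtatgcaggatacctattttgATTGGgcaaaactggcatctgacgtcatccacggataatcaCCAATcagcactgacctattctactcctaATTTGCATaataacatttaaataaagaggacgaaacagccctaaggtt
H3C2 is an H3 promoter with a peak in all 3 lists.
H3C2: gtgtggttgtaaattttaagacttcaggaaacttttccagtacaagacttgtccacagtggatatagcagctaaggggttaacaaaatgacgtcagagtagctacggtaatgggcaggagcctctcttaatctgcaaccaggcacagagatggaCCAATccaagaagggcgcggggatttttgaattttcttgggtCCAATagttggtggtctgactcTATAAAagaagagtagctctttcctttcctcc
H4C11 and H4C12 are near-identical H4 promoters, the former with a peak in clone 1 only and the latter in control and clone 1.
H4C11: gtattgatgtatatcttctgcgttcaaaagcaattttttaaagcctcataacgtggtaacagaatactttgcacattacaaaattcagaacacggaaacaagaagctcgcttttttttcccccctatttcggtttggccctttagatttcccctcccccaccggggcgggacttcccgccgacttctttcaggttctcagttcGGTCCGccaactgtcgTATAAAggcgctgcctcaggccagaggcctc
H4C12: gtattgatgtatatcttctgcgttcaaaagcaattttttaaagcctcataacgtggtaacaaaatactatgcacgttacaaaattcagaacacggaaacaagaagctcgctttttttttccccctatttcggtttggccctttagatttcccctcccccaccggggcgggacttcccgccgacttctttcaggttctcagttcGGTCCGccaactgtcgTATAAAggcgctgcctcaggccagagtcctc
H1-4 and H1-5 each had a control peak over the start site and no clone peak over this stretch.
H1-4: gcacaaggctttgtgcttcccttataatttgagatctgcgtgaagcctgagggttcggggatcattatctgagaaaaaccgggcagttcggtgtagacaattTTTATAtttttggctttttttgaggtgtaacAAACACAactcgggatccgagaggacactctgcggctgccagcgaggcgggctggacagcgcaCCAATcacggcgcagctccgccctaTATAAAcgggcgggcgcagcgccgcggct
H1-5: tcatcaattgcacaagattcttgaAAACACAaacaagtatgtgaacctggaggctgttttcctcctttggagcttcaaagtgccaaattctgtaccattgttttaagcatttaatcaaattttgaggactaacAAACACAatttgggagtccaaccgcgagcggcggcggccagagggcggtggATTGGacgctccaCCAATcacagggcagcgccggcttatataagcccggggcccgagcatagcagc

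These stretches lie at chr6:27146859-27147108 on the minus strand, chr6:27807930-27808179 on the minus strand, chr6:27814772-27815021 on the plus strand and chr6:26032100-26032349 on the minus strand. Those of the H4 and H1 genes lie at chr6:27823842-27824091 on the plus strand, chr6:27831561-27831810 on the minus strand, chr6:26156079-26156328 on the plus strand and chr6:27867589-27867838 on the minus strand. Those of H2BC12, H2BC13 and H2BC14 span all of the DNA between the H2B gene and the H2A gene head to head with it.

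A gene-end peak was listed for most histone genes in control and for fewer in each clone. In control, 57 of 68 had one (83.8%), against 60.9% of all protein-coding genes. In clone 1 there were 47 (69.1%, against 50.4%), and in clone 2 there were 32 (47.1%, against 43.2%). The excess of histone genes over all genes was thus smallest in clone 2. The comparisons of the clones with control share the control list, and 31 of the 57 genes had a peak in both clones (54.4%, against 64.7% of all genes with a control peak).

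Of the 57 genes with a control peak, 12 had none in clone 1. That is 21.1%, and the share over all genes with a control peak was also 21.1%, so the histone genes stood at the background. The shares were less alike with lists of equal length (21.3%, against 15.9%) and with peaks at or above the median score of their list (39.1%, against 30.9%). Within 500 bp of gene ends they were 23.2% and 20.9%. The histone share was the lower one within 2000 bp (19.0%, against 21.3%). It was also lower with only scores recognisable as means over replicates (44.1%, against 47.5%). In clone 2, 26 had none (45.6%, against 30.1%). When each list was cut to its 34572 highest peaks, the length of the shortest list, 17 of 47 had none in clone 2 (36.2%, against 19.96%). None in either clone was found for 12 (21.1%, against 15.9%). Every histone gene without a peak in clone 1 also lacked one in clone 2: the count with a peak in control and clone 2 but not in clone 1 was 0 (5.15% over all genes). The reverse, a peak in control and clone 1 but not in clone 2, held for 14 (24.6%, against 14.2%). Of the 11 histone genes without a control peak, 2 had one in clone 1 (5.93% over all genes without a control peak), 1 had one in clone 2 (1.55%), and 1 had one in both (0.564%). No peak in any list was found for 9 (13.2%, against 36.4%).

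Adjoining genes share peaks, so they are not independent. The 57 genes with a control peak rested on 52 distinct peaks, of which 22 served 1 gene, 27 served 2 and 3 served more. A gene's highest score can therefore belong to a peak over a neighbour: the highest peak did not touch the gene itself for 12 of 57 genes in control, 8 of 47 in clone 1 and 20 of 32 in clone 2. No peak at all touched the gene for 1, 3 and 18 of them. There were 39 distinct peaks in clone 1 and 25 in clone 2. Of the 52 control peaks, 35 were overlapped by a clone 1 peak (67.3%, against 72.3% of all control gene-end peaks) and 20 by a clone 2 peak (38.5%, against 64.0%). With genes that share a control peak joined, 34 units remained, of which 6 had no peak in clone 1, 15 had none in clone 2 and 6 had none in either.

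**Figure D1:**
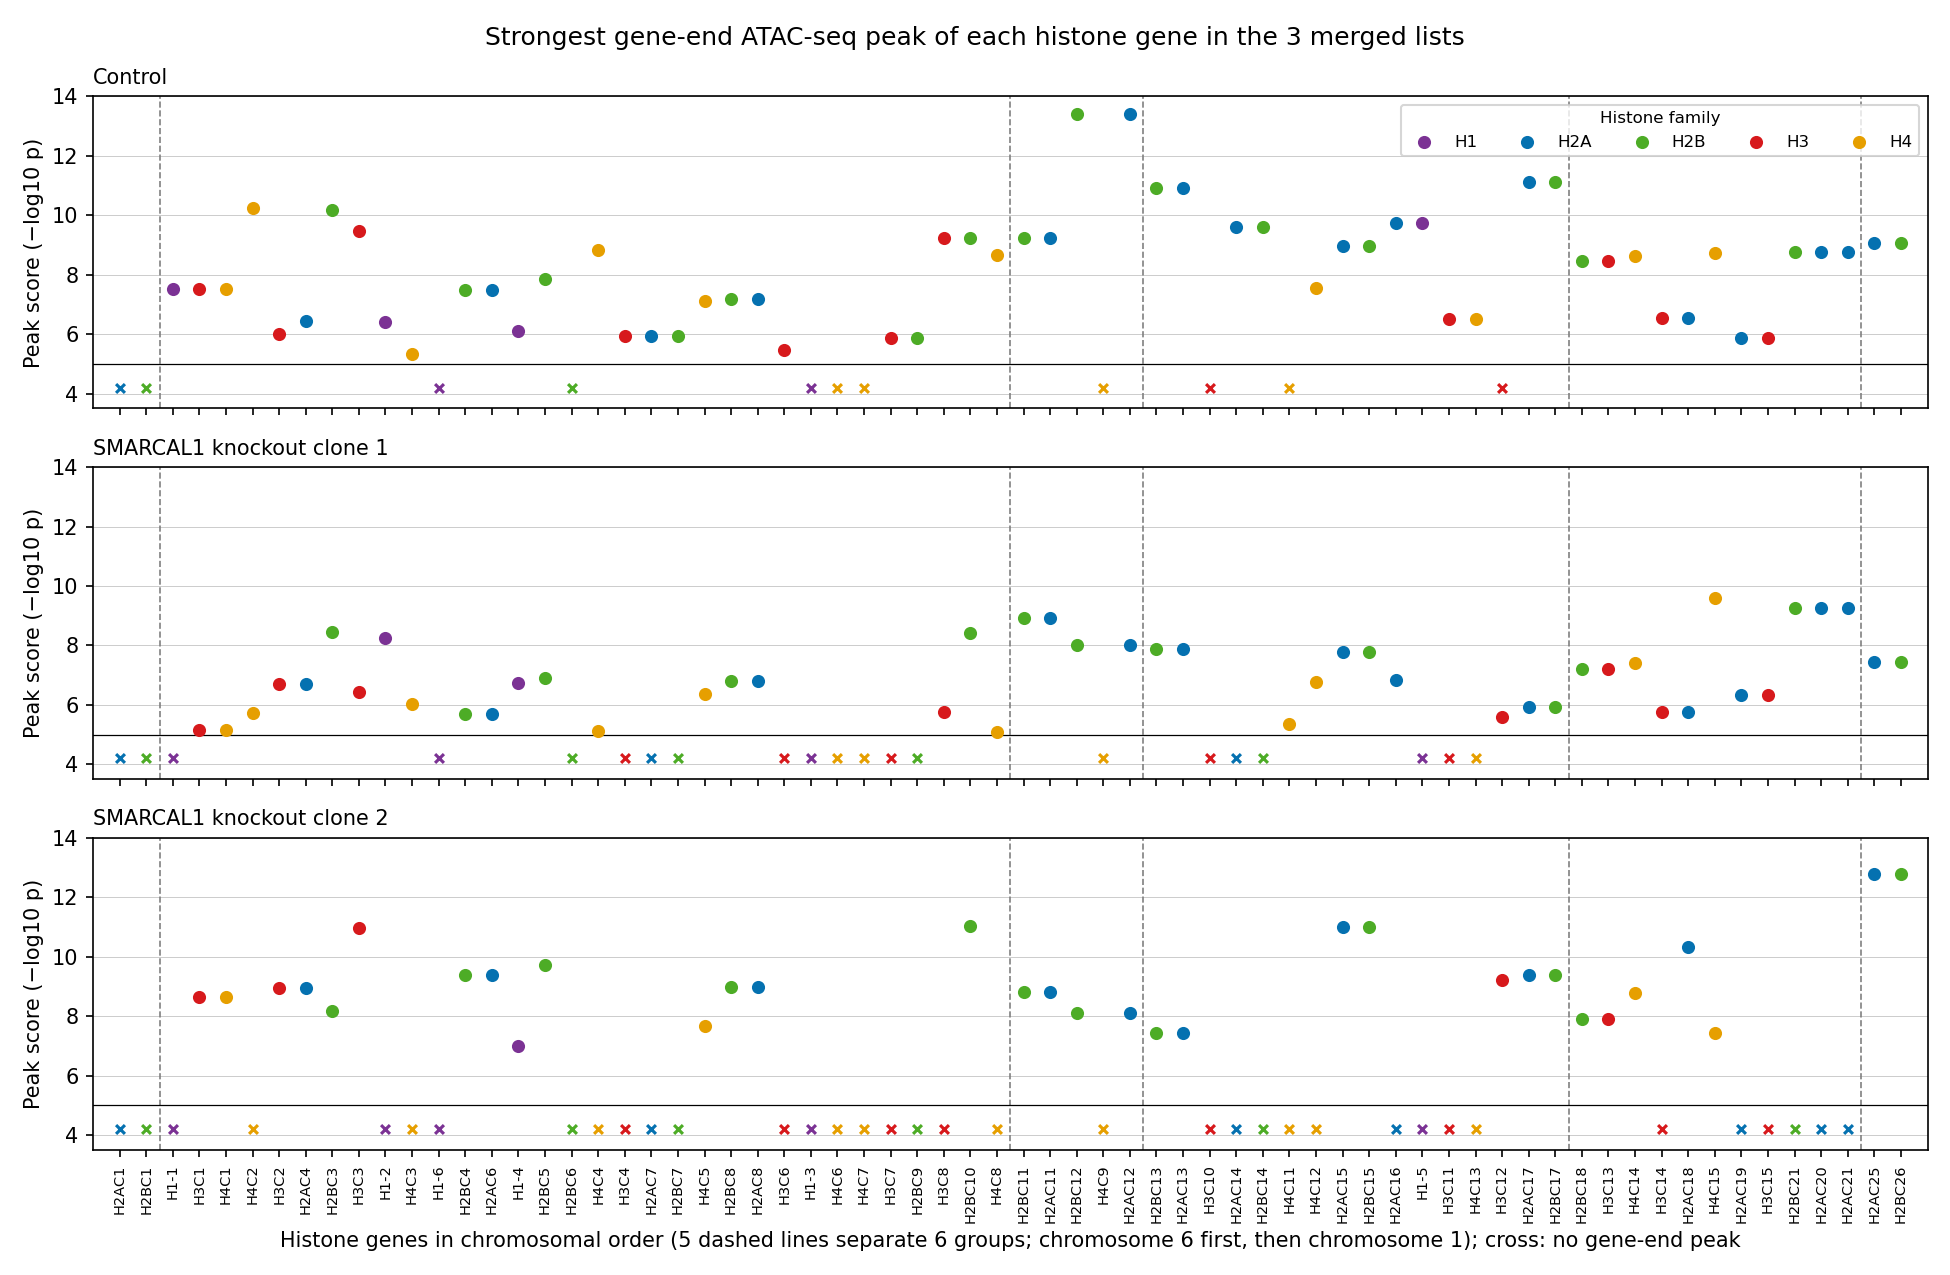
Strongest gene-end peak of each of the 68 histone genes (points, coloured by family) in the 3 merged lists, with the score as −log10 p on the vertical axis and genes in chromosomal order on the horizontal axis; a cross marks a gene with no gene-end peak. Crosses increase from 11 in control to 21 in clone 1 and 36 in clone 2, and the highest control point, 13.4, is the peak shared by H2BC12 and H2AC12.

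The linker histone H1 genes, whose proteins bind DNA between nucleosomes, had a peak for 4 of the 6 genes in control, 2 in clone 1 and 1 in clone 2. H1-4 was the one with a gene-end peak in all 3 lists (6.10, 6.73 and 6.998), at a place toward H2BC5 that lies away from its start. Its peak over the start (chr6:26156236-26156812, 5.02) was in control only. H1-2 scored 6.41 in control and 8.25 in clone 1 (6.98 at the clone 1 peak that touches the gene) and had no clone 2 peak. H1-1 scored 7.53 in control, at a 306 bp peak over its start, and was in neither clone. H1-5 had 3 control peaks and none in either clone. Its highest score, 9.76, belongs to a peak over the neighbouring H2AC16 that reaches its 1000 bp window; the peaks nearer to H1-5 itself scored 5.24 and 5.12. Clone 1 had a peak of 6.83 at H2AC16 as well, but at a place outside the window of H1-5. H1-3 and H1-6 had no peak in any list, and H1-6 is a gene known for expression in testis.

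The H2A genes, whose products pair with H2B in the nucleosome, had a peak for 16 of the 17 genes in control, 14 in clone 1 and 10 in clone 2. Among them, the 3 H2A genes with the highest control score were H2AC12 (13.4), H2AC17 (11.1) and H2AC13 (10.9). H2AC12 scored 8.01 in clone 1 and 8.10 in clone 2. H2AC17 scored 5.92 and 9.40, and H2AC13 scored 7.88 and 7.45. All of these H2A values are those of a peak shared with the H2B gene head to head with it. H2AC7 (5.94) and H2AC14 (9.60) had a control peak and none in either clone. H2AC16 (9.76 in control, 6.83 in clone 1), H2AC19 (5.89, 6.35), and H2AC20 and H2AC21 (8.76, 9.28) had none in clone 2. The peaks of 8.76 and 9.28 do not touch H2AC21. The control peak that touches H2AC21 scored 6.02 and was overlapped in neither clone. The control peak that touches H2AC19 scored 5.80.

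The H2B genes had the most peaks in clone 2: 16 of 18 genes had one in control, 13 in clone 1 and 12 in clone 2. All 12 with a clone 2 peak had one in the other lists too. The highest control scores were those of H2BC12 (13.4), H2BC17 (11.1) and H2BC13 (10.9), each at the peak it shares with the H2A gene named above. H2BC3, which has no head-to-head partner among these genes, scored 10.2 in control, 8.46 in clone 1 and 8.17 in clone 2. H2BC7 (5.94), H2BC9 (5.86) and H2BC14 (9.60) had a control peak and none in either clone. H2BC21 had none in clone 2 only (8.76 in control, 9.28 in clone 1). H2BC1, a testis-expressed H2B, and H2BC6 had none in any list.

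For H3, the histone whose tail carries many of the marks of active and silent chromatin, 11 of 13 genes had a peak in control, 8 in clone 1 and 5 in clone 2. H3C3 had the highest control score (9.47) and scored 6.43 in clone 1 and 10.96 in clone 2. H3C8 followed with 9.25, but that peak lies over H2BC10 and was overlapped in both clones. The control peak over H3C8 itself scored 8.30, the clone 1 peak scored 5.75, and clone 2 had none within the window. H3C13 scored 8.46, 7.22 and 7.90 in the 3 lists, at peaks over one end of H2BC18 that do not touch H3C13. The peaks over H3C13 itself scored 8.26 in control and 5.70 in clone 1, and clone 2 had none there. H3C4 (5.94), H3C6 (5.48), H3C7 (5.86) and H3C11 (6.50) had a control peak and none in either clone. That is 4 of 11 (36.4%, against 15.9% of all genes with a control peak), while for H1 it was 2 of 4 (50%). For H2A it was 2 of 16 (12.5%), for H2B 3 of 16 (18.75%) and for H4 1 of 10 (10%). The control scores of these 4 H3 genes all lie from 5 to below 7, where the share over all genes was 44.8%. The highest peaks of H3C4 and H3C6 do not touch these genes, and the peaks that do scored 5.43 and 5.06. H3C14 (6.54, 5.77) and H3C15 (5.89, 6.35) had none in clone 2. No clone 1 peak touches H3C14, and the clone 1 peak that touches H3C15 scored 5.37.

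H4, which pairs with H3, had a peak for 10 of 14 genes in control, 10 in clone 1 and 4 in clone 2. In clone 1 the count includes H4C11, which had none in control. Highest in control were H4C2 (10.3), H4C4 (8.83) and H4C15 (8.72). H4C2 scored 5.72 and H4C4 5.13 in clone 1, and neither had a clone 2 peak. The 10.3 of H4C2 came from a 276 bp peak that no clone 1 peak overlapped; a second control peak, 6.66, was the one found in clone 1. H4C15 scored 9.59 in clone 1 and 7.43 in clone 2. H4C3 (5.34 in control, 6.04 in clone 1), H4C8 (8.65, 5.10) and H4C12 (7.54, 6.77) also had none in clone 2. H4C13 (6.50) was the H4 gene with a control peak and none in either clone, and that peak does not touch H4C13 itself.

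**Figure D2:**
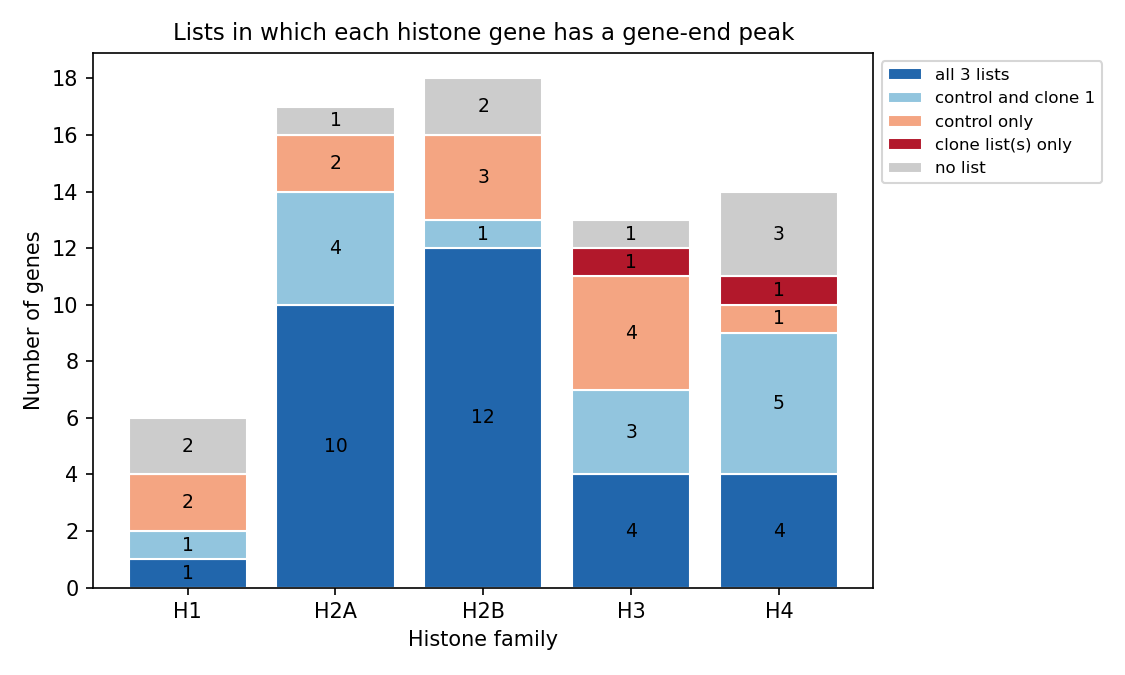
Number of genes of each histone family (bars) by the lists in which they had a gene-end peak (colours), with counts on the vertical axis. A peak in all 3 lists was found for 12 of 18 H2B, 10 of 17 H2A, 4 of 13 H3, 4 of 14 H4 and 1 of 6 H1 genes.

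By position, the genes form 6 groups with gaps over 250 kb between them. H2AC1 and H2BC1, near 25.73 Mb on chromosome 6, had no peak in any list. The largest group, 32 genes from H1-1 to H4C8 (chr6:26017032-26285534), had a peak for 27 genes in control, 20 in clone 1 and 14 in clone 2, and 7 of the 27 had none in either clone. The 5 genes from H2BC11 to H2AC12 (chr6:27132316-27147562) had a peak for 4 genes in every list; the exception was H4C9. The 16 genes from H2BC13 to H2BC17 (chr6:27807479-27893891) had 13, 10 and 7, and 5 of the 13 had none in either clone. The 11 genes from H2BC18 to H2AC21 on chromosome 1 (chr1:149782689-149887965) all had a peak in control and in clone 1, and 5 had one in clone 2. H2AC25 and H2BC26 (chr1:228457364-228458558) shared peaks scoring 9.06, 7.45 and 12.8, so they had one in all 3 lists. All 12 genes without a peak in either clone therefore lay on chromosome 6, in 2 of its groups.

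Within the largest group, 6 genes without a clone peak lay close together, between H3C4 and H2BC9. H3C4, H2AC7 and H2BC7 shared a control peak of 5.94. H4C5, with 7.12 in control, 6.36 in clone 1 and 7.67 in clone 2, and the pair H2BC8 and H2AC8, with 7.18, 6.81 and 8.98, followed and had peaks in all lists. H3C6 (5.48) then had a control peak only. H1-3, H4C6 and H4C7 had none in any list, and the control peak of H3C7 and H2BC9 (5.86) was again in neither clone. The control scores of the 6 genes lay between 5.48 and 5.94, near the lowest score in the control list, 5.00.

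H3C12 (chr6:27890315-27890826) was the histone gene that had peaks in the clones but not in control. Clone 1 had a 288 bp peak of 5.60 (chr6:27890721-27891008) and clone 2 a 119 bp peak of 9.24 (chr6:27890811-27890929). These overlap each other at one end of the gene. The nearest control peak was 2145 bp away, the 11.1 peak of H2AC17 and H2BC17. H4C11 (chr6:27824092-27824480) had a clone 1 peak only, of 5.35 (chr6:27823822-27824552), and its nearest control peak lay 6697 bp away. Among genes with no peak, H3C10 lay just beyond the 1000 bp window: its nearest peaks were 1509 bp away in control, 1343 bp in clone 1 and 1775 bp in clone 2.

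Some of these genes are near-identical copies, and reads from them may not be assigned to the right one, so their values are uncertain. The 300 bp promoters of H4C14 and H4C15 were identical, as were the aligned bases of those of H3C14 and H3C15, and of H2AC18 and H2AC19. H4C14 and H4C15 had peaks in all lists. H2AC18 had a clone 2 peak of 10.3, while H2AC19 had none in clone 2. H4C11 and H4C12, printed above, matched at 295 of 300 positions (98.3%), and of this pair control listed only H4C12. H2BC13 and H2BC14 matched at 254 of 307 aligned positions (82.7%). H2BC13 scored 10.9 in control, 7.88 in clone 1 and 7.45 in clone 2, while the single control peak over H2BC14 and H2AC14 (chr6:27814364-27815631, score 9.60) was overlapped in neither clone.

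Genes with a low control score lacked a peak in the clones in larger shares, among all genes and among histone genes from 5 to 9. Among genes whose control score was from 5 to below 7, 44.8% of all genes and 8 of 17 histone genes (47.1%) had no peak in either clone. From 7 to below 9, the shares were 11.6% of all genes and 1 of 21 histone genes (4.76%). At 9 or more, they were 1.03% of all genes and 3 of 19 histone genes (15.8%). Those 3 are H2AC14 and H2BC14, which share 1 peak, and H1-5, whose score comes from the peak over H2AC16. For clone 2 alone, 13 of 17 histone genes from 5 to below 7 had none (76.5%, against 72.1% of all genes). From 7 to below 9, it was 7 of 21 (33.3%, against 32.3%), so both lower bands were near the all-gene shares. At 9 or more, 6 of 19 histone genes (31.6%) and 5.25% of all genes had none in clone 2. The other 3 of the 6 were H4C2, H3C8 and H2AC16. The 9.25 peak of H3C8 lies over H2BC10 and was found in clone 2, and the 10.3 peak of H4C2 does not touch H4C2. At peaks that touch the gene, H3C8 scored 8.30, H4C2 6.66 and H1-5 5.12, so H2AC14, H2BC14 and H2AC16 are the 3 of the 6 with such a peak at 9 or more. The median control score of the 57 histone genes was 8.46, against 9.15 over all genes with a control peak. The upper quartiles were 9.25 and 13.5, and the highest scores were 13.4 and 49.3. The band of 9 or more therefore holds lower scores among histone genes than among all genes, and its shares are not matched for score.

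**Figure D3:**
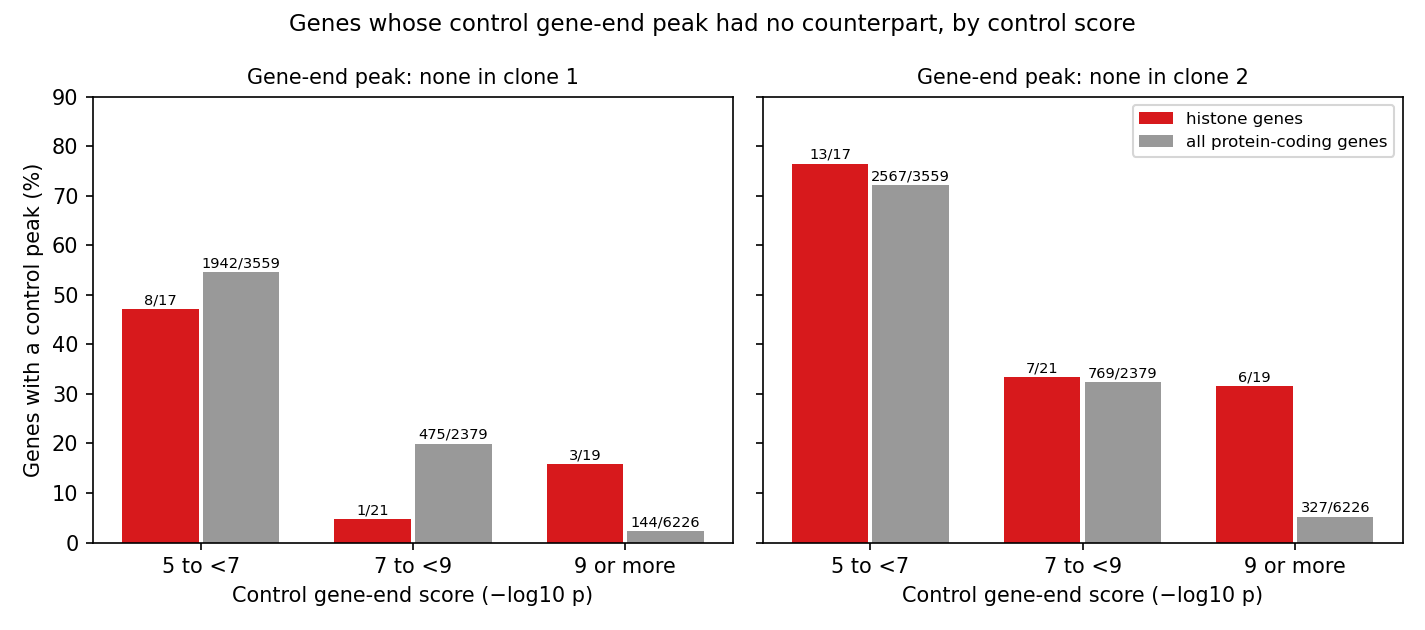
Percent of genes with a control gene-end peak that had none in clone 1 (left) or none in clone 2 (right), by band of control score (−log10 p), for histone genes and all protein-coding genes. In the band of 9 or more, the histone bars stand on 19 genes. Of these, 3 had none in clone 1 (15.8%, against 2.31% of all genes) and 6 had none in clone 2 (31.6%, against 5.25%). This band has no upper limit and is not matched for score: the highest control score was 13.4 in histone genes and 49.3 over all genes.

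Over the start site itself, the lists differed more than in the gene-end counts. Start sites were known for 63 of the 68 genes, those with an entry in the promoter table. A control peak covered the start of 51 of them (81.0%, against 55.8% of all genes in that table). Clone 1 peaks covered 40 (63.5%, against 45.6%). Clone 2 peaks covered 8 (12.7%, against 31.1%), the one list in which histone genes were below all genes. Counted only among genes with a gene-end peak in the same list, the start was covered in 51 of 53 histone genes in control (96.2%, against 85.0%), 40 of 43 in clone 1 (93.0%, against 83.0%) and 8 of 29 in clone 2 (27.6%, against 65.1%).

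Clone 2 coverage of histone genes was highest at position −120 relative to the start, where 25.4% of the 63 genes had a peak, with the same value at −100. Over all genes it was highest at −60, at 34.2%. In control, histone coverage was 82.5% at −60 and 81.0% at the start, and in clone 1 it was 63.5% from −80 to 80, the start included. Peak width differed alongside. The histone gene peaks had a median width of 794 bp in control and 799 bp in clone 1, but 159 bp in clone 2. All gene-end peaks had medians of 914.5, 858 and 254 bp, so the histone gene peaks were narrower in every list. The part of peak width, batch or peak calling in this difference was not tested.

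**Figure D4:**
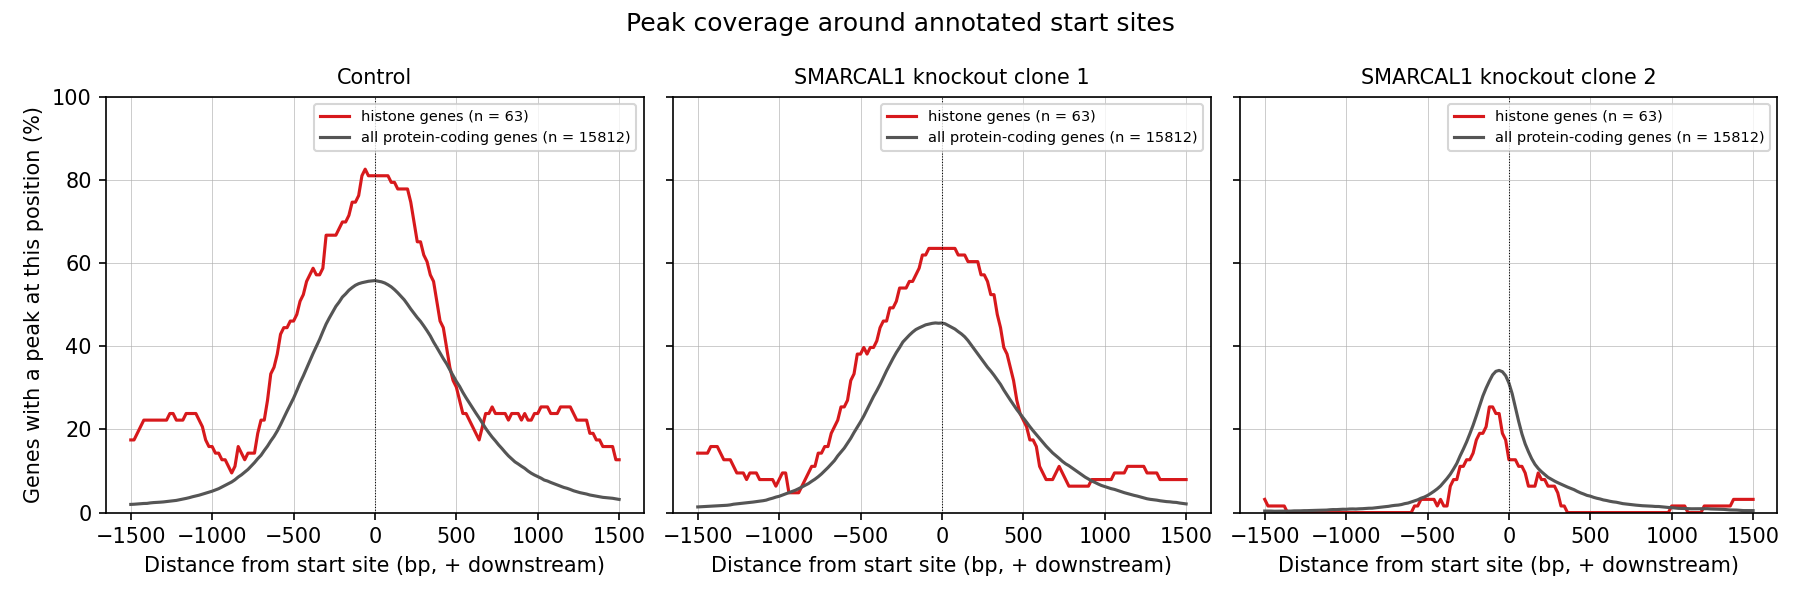
Percent of genes with a peak at each position around the annotated start site (horizontal axis, bp, positive downstream) for 63 histone genes and 15812 protein-coding genes, by list. The histone curve stands above that of all genes at the start in control (81.0% and 55.8%) and clone 1 (63.5% and 45.6%) and below it in clone 2 (12.7% and 31.1%).

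In the head-to-head pairs, no clone 2 peak spanned both start sites. Both starts were known for 13 pairs, 194 to 979 bp apart (median 236 bp). H3C4 and H2AC7, listed with the same start, each count as a pair with H2BC7. A single peak spanned both starts of 11 pairs in control, 8 in clone 1 and 0 in clone 2. Clone 2 peaks at histone genes had a median width of 159 bp (at most 353 bp), less than the median distance between starts. The 0 can therefore not be told apart from the narrow peaks of that list. Some peak touched the DNA between the starts in 12 pairs in control, 8 in clone 1 and 6 in clone 2. For H2BC12 and H2AC12, not counted among the pairs because H2AC12 has no entry in the promoter table, the control peak was 890 bp wide (chr6:27146626-27147515), the clone 1 peak 1065 bp (chr6:27146383-27147447) and the clone 2 peak 265 bp (chr6:27146800-27147064).

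The promoters share features that did not enter their choice. Over the 300 bases from 250 before to 50 after the start, the median GC content was 43.0% in the histone genes and 62.7% in all genes. TATAAA was found in 41 of 63 histone promoters (65.1%, against 9.64% of all promoters) and CCAAT in 54 (85.7%, against 36.3%). CCAAT was in every H1, H2A, H2B and H3 promoter of the table and in 3 of 12 H4 promoters. The octamer ATTTGCAT was found in 26 (41.3%, against 1.70%): 14 of 18 H2B, 11 of 16 H2A and 1 of 11 H3 promoters. Divergent H2A and H2B genes share the DNA between their starts, so their matches are partly the same letters. The H3 promoter with the octamer is that of H3C4 at the start listed for H2AC7 too, so its 300 bases are the same stretch of DNA as the H2AC7 promoter. H3C4 has 2 listed starts, and its motifs were searched at this start only.

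Other motifs were tied to a family. AAACACA was in all 6 H1 promoters and in 14.3% of all histone promoters (4.25% of all genes), and in 5 of the 6 it began 105 to 119 bases before the start. GGTCCG was in 11 of 12 H4 promoters (22.2% of histone promoters, 14.5% of all genes), each time 44 to 47 bases before the start. The E2F forms TTTGGCGC and TTTCCCGC were in 0 and 1 of 63 (0.892% and 2.18% of all genes). All motifs were searched on both strands, and none of them contains another. A match is a description of these letters and not of binding.

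The motifs occurred in genes with peaks in all lists, in genes with a control peak alone and in genes with none. CCAAT was in 26 of 29, 11 of 11 and 8 of 9 of their promoters. TATAAA was in 19 of 29, 6 of 11 and 6 of 9. The octamer was in 13 of 29, 6 of 11 and 3 of 9. Among the promoters printed above, that of H2BC14, without a clone peak, holds the octamer at position −48. That of H2BC13, with a peak in all lists, lacks the octamer. TATAAA differed the other way: H2BC13 has a match 25 to 35 bases before the start, and H2BC14 has none there. Both promoters hold a match farther from the start.

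Genes that regulate histone transcription, mRNA ending or histone handling had a control gene-end peak for all 25 on the list, against 60.9% of all genes. In clone 1 there were 22 (88%, against 50.4%) and in clone 2 there were 20 (80%, against 43.2%). Of the 25, 5 had none in clone 2 (20%, against 30.1% of all genes with a control peak). None in either clone was found for 3 (12%, against 15.9%), so the losses named below were below the all-gene shares. NPAT scored 17.98, 19.2 and 18.5 in control, clone 1 and clone 2. CASP8AP2 scored 20.4, 14.1 and 28.6. HINFP, the activator of H4 genes, scored 10.2, 9.54 and 9.44, and SLBP scored 8.80, 9.14 and 10.1. A control peak with none in either clone was found for LSM10 (6.98), for SRRT (5.47), which encodes the cap-associated protein ARS2, and for CPSF2 (5.88), which encodes a subunit of the cleavage complex. DAXX, a chaperone of H3.3, scored 6.63 in control and 6.07 in clone 1 and had no clone 2 peak. CHAF1A, a subunit of the assembly factor CAF-1, scored 6.70 and 5.12 and had none there either.

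A further 13 histone genes, most of them replication-independent variants, were not taken by symbol and place. Of these, 11 had a peak in control (84.6%), 9 in clone 1 (69.2%) and 8 in clone 2 (61.5%). Over all genes the shares were 60.9%, 50.4% and 43.2%. MACROH2A1, which encodes a macroH2A variant, had a control peak (6.01) and none in either clone. H1-10 (6.20 in control, 9.25 in clone 2) had none in clone 1. H3-3B, which encodes H3.3 (6.22 in control, 5.38 in clone 1), and MACROH2A2 (5.56, 6.41) had none in clone 2. H3-4 and H3-5 had none in any list.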

How the data were processed

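ATAC-seq was done on MDA-MB-436 nuclei by the standard protocol with NP-40 lysis, per the labels' protocols. The data used were 3 deposited peak lists, in each of which the authors had merged the replicates of 1 group. HISAT2, MACS2 and ChIPseeker were used with builds hg38 and mm10, per the submitters' processing notes; their versions and settings and the merging rule were not given in the sources used here. Each deposited line holds a position and a score. The lists have no header. The deposited score was taken to be −log10 p from peak calling, since scores that recur often in a list match −log10 Poisson tails at successive whole pileups for 1 constant background. Scores with more decimals than single calls carry are means over replicates. A mean over several libraries can be lower than the score of a peak called in 1 library. Read depth is not given, and no peak scores below 5.

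Deposited starts, counted from 0, are printed counted from 1. Gene positions came from the RefSeq table of GRCh38.p14: 19970 protein-coding genes on the autosomes and X, with Y left out. Peaks within 1000 bp of either gene end were assigned to the gene (at least 1 bp of overlap with the window), and the highest score represents it. Start sites and promoters (250 bases before to 50 after the start) came from a RefSeq table with entries for 63 of the 68 genes; H2AC12, H3C11, H3C12, H4C1 and H4C3 had none. Where several starts were listed, the first was used. Promoters were compared by alignment with Biopython 1.88; tables were made with pandas 2.3.3. The overlap code was tested on simulated data. All 25 regulators and 13 of 15 further histone genes matched by symbol (another is not reported here); H2AW and H2BU1 are older symbols of H2AC25 and H2BC26, which are already included.

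With 1 list per group no test was possible, and counts stand beside the same counts over all protein-coding genes. The members, lists and windows were chosen with earlier results of these data known. Named genes are those with a peak in 1 list and none in another, those with no peak in any list, the 3 of each family with the highest control score, and fixed regulators. The sequence pairs shown and the other genes given as examples were chosen after their values were seen. Alternatives were the window, start sites only, equal list lengths, a score minimum, peak centres, and leaving out near-identical copies.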

Additional observations from a re-analysis of the deposited data

How the results depend on the processing

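Of 70 recomputed counts, 54 stayed within 1.5 times the reported one and 16 did not. With start sites only, no gene was gained in both clones (0 instead of 1, since H3C12 has no start site in the table). With lists cut to equal length, 17 genes had a control peak and none in clone 2 instead of 26, and 2 were gained in both clones, H3C12 and H3C2. Of the 12 genes absent from both clones, 6 remained among the 8 found that way; H3C4, H2AC7, H2BC7, H3C6, H3C7 and H2BC9 dropped out of the control list. With peaks at or above the median score of their list, clone 2 had 3 genes with a peak, 43 genes had a control peak and none in clone 2 (93.5%, against 49.4% of all genes), and 0 were gained in both.

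Other alternatives were chosen after seeing the data. With recognisable means over replicates only, 34 genes had a peak in control, 29 in clone 1 and 7 in clone 2, and 0 were gained in both. Counting genes that share a control peak as 1 unit gave 34, 30 and 20 with a peak, 6 without one in clone 1, 15 without one in clone 2 and 6 without one in either. Also counting clone peaks that overlap the gene-end peak of control left 11 without a peak in either clone, H1-5 being the one dropped.

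No paired analysis was possible because the replicates of each group were merged into 1 list before deposit; leaving out each replicate in turn was not run for the same reason. Depth per library is not given, so a peak missing from a list cannot be told apart from one too weak to be called there.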

Other observations

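The 73 other protein-coding genes in the same chromosome windows had a gene-end peak for 49 in control, 37 in clone 1 and 31 in clone 2. H3-4, named above, is among the 73. Of the 49, 14 had none in clone 1 (28.6%), 18 had none in clone 2 (36.7%) and 8 had none in either (16.3%). A peak in control and clone 2 but not in clone 1, a class with 0 histone genes, held for 6 of these neighbours. They are SF3B4 and MTMR11, which share a peak of 6.64 in control and 8.51 in clone 2; MRPS21 (7.12, 8.82); BTN2A1 (7.67, 9.44); ZSCAN16 (9.37, 8.06); and ZKSCAN3 (6.18, 9.43).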
